A study of Homo sapiens with 6 samples.

Results

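The genes described here are BRCA1, XRCC2, RAD54L and EXO1, 4 genes of homologous recombination repair taken by name from a deposited table of 1630 genes. RNA was sequenced from U87MG, an established human glioblastoma cell line, in 2 groups of 3 libraries. The control libraries carry an shRNA labelled shControl (genotype NC) and the knockdown libraries carry shCREPT (genotype CREPT Knockdown), so every library comes from 1 cell line with a hairpin. The labels state no time after the hairpin was introduced, do not say whether the 3 knockdown libraries used 1 hairpin sequence or several, and do not say whether the libraries of a group came from separate cultures. CREPT, encoded by RPRD1B, is a protein that attaches to the tail of RNA polymerase II, and the series title ties it to proliferation in glioblastoma.

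Homologous recombination repairs DNA double-strand breaks and stalled replication forks by copying the intact sister chromatid, and it works mainly in S and G2 phase. Nucleases resect the broken ends to single strands, and a protein filament formed on these then searches for and invades the matching duplex. EXO1 is an exonuclease of long-range resection that also acts in mismatch repair. BRCA1 promotes resection and the formation of the filament, XRCC2 belongs to a complex that stabilises the filament, and RAD54L is a motor protein that drives strand invasion.

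The sequence before a RefSeq start of each gene is shown as description only. These genes are all marked up in the authors' deposited table, as are 40.3% of its genes. Each line gives bases before the RefSeq start (GRCh38.p14), on the gene's own strand from 5′ to 3′, and stops where the first principal transcript of GENCODE 29 begins if that lies further upstream. Here and below, first principal transcript stands for the most upstream transcript with any APPRIS isoform tag. Tags of alternative isoforms were not filtered out. Capitals mark matches to any of the motifs searched, and all other bases are in lower case. The windows are chr17:43125484-43125614 (minus strand) for BRCA1, chr7:152676166-152676391 (minus strand) for XRCC2, chr1:46247438-46247687 (plus strand) for RAD54L and chr1:241847954-241848179 (plus strand) for EXO1. The BRCA1 window lies wholly, and the EXO1 window mostly, inside the gene's GENCODE 29 span. In these genes the window thus precedes a transcript start and not the whole gene.
BRCA1: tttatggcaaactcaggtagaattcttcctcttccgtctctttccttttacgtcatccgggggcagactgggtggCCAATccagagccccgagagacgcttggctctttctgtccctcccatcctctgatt
XRCC2: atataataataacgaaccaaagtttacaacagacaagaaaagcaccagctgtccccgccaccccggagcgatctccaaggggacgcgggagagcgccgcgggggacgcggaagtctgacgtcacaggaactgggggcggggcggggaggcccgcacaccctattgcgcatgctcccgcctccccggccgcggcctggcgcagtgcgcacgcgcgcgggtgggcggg
RAD54L: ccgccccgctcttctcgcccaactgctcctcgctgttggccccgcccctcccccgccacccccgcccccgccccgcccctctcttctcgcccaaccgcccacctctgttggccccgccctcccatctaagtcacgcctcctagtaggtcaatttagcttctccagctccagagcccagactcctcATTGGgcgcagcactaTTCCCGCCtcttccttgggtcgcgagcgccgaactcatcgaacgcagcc
EXO1: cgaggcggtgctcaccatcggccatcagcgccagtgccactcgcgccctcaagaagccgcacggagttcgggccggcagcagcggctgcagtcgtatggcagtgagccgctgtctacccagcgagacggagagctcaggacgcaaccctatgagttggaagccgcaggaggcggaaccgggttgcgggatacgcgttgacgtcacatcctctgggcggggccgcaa

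The motifs were searched on both strands in the full 250 bases before each RefSeq start, and the same was done for all 35116 promoter windows of the RefSeq table. CCAAT, the box bound by NF-Y, was found in 2 of the 4 genes, at position −175 of BRCA1 and, on the reverse strand, at −65 of RAD54L, and it stood in 32.0% of all windows. GGCGGGAA, of the E2F type, was found on the reverse strand at −49 of RAD54L and in 2.72% of all windows. XRCC2 carries the same 8 letters at +21, after its start and outside the window shown. TTTGGCGC, also of the E2F type, had no match in the 4 windows and stood in 0.55% of all windows. The cell cycle homology region, searched as TTTGAA, was likewise absent from the 4 windows, against 13.3% of all windows holding it. The palindromic NRF1 motif (1.03% of all windows) had no match in them, and neither had the TATA box, searched as TATAAA, which 10.7% of all windows hold. No searched motif overlapped another in these windows. EXO1 had no match at all, which says only that these letters are not in its window. The G and C content of the 250 bases was 52.4% for BRCA1 and 65.6% to 67.6% for the other 3 genes. The median over all windows was 58%, and the motif shares were not matched for G and C content.

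All 4 genes stood higher in shCREPT cells than in control cells. Relative to control, the mean level was 2.37-fold for BRCA1, 2.08-fold for EXO1, 1.99-fold for XRCC2 and 1.66-fold for RAD54L (n = 3 libraries a group). In each gene the lowest knockdown library lay above the highest control library. All 4 passed limma's test with Benjamini-Hochberg adjustment over the 1184 genes tested. These calls must be read against the table, which holds only genes that the authors had marked significant for this same comparison: 97.9% of the tested genes passed in either direction and 40.6% passed as higher. The groups did not overlap in 96.8% of the tested genes, and in 40.2% they did not overlap with shCREPT above control. That the 4 genes differ was therefore set by their having a row. The authors' deposited table also lists no absolute log2 fold under 1.001, so a lower bound on the authors' fold was set too. What the data add is the spread between libraries and the size of each difference given that bound. The other genes named beside them passed the same selection. The 4 genes were named with earlier results of these data known, and only genes with a row could be named.

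The values are the authors' normalized expression values on a linear scale. No source used here says whether they are scaled by gene length, so levels are compared between libraries and never between genes. Read depth is unknown; over the listed genes a library's values added up to 31894 at the least and 33331 at the most. A gene's level in bulk RNA cannot tell more cells in a phase that expresses it from more RNA per cell.

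For BRCA1, the control libraries read 20.48, 19.72 and 25.57 and the knockdown libraries 55.81, 51.91 and 48.28. The third control library was the highest of its group, and the lowest knockdown value was still 1.89 times that library. The group means were 21.9 ± 3.18 and 52.0 ± 3.77 (SD, n = 3). On the scale of log2(value + 1) the difference was 1.22 ± 0.12 (SE; 95% interval 0.92 to 1.51; limma adjusted p = 8.88e-05). BRCA1 lies on chromosome 17, 43044295 to 43170245 on the minus strand (GENCODE 29, GRCh38), and the first principal transcript has 24 exons.

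For XRCC2, the control libraries read 7.91, 7.38 and 7.77 and the knockdown libraries 15.20, 15.24 and 15.51. These were the tightest knockdown values of the 4 genes, with a coefficient of variation of 1.10%. The means were 7.69 ± 0.275 and 15.3 ± 0.169 (SD, n = 3). The log2 difference was 0.91 ± 0.07 (SE; 95% interval 0.73 to 1.09; limma adjusted p = 3.58e-05). The gene lies on chromosome 7, 152644779 to 152676165 on the minus strand, with 3 exons in its principal transcript.

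For EXO1, the control libraries read 9.04, 8.89 and 8.72 and the knockdown libraries 17.33, 20.06 and 17.93. Here the control group was the tight one, and the second knockdown library stood above the other 2. The means were 8.88 ± 0.16 and 18.4 ± 1.43 (SD, n = 3). The log2 difference was 0.97 ± 0.09 (SE; 95% interval 0.77 to 1.18; limma adjusted p = 4.85e-05). EXO1 lies on chromosome 1, 241847967 to 241895148 on the plus strand, and its first principal transcript has 16 exons.

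For RAD54L, the control libraries read 13.00, 22.62 and 15.56 and the knockdown libraries 31.34, 25.70 and 27.86. The second control library stood far above the other controls, and the lowest knockdown value was only 1.14 times that library. The means were 17.1 ± 4.98 and 28.3 ± 2.85 (SD, n = 3), a control coefficient of variation of 29.2% against 1.80% for EXO1 and 14.5% for BRCA1. The log2 difference was 0.73 ± 0.20 (SE; 95% interval 0.25 to 1.21; limma adjusted p = 0.0100). Without the second control library the ratio of the means was 1.98 and the log2 difference 0.94 (limma adjusted p = 0.00111). Without the first control library they were 1.48 and 0.56 (limma adjusted p = 0.0247), and without any of the other 4 the log2 difference was 0.66 to 0.79. RAD54L lies on chromosome 1, 46247688 to 46278473 on the plus strand, and its first principal transcript has 19 exons. It shares 17278 bases of its span with LRRC41 on the opposite strand. BRCA1 shares 28062 bases of its span with the lncRNA NBR2 on the opposite strand, which lies wholly inside the BRCA1 span and upstream of the start of its first principal transcript. It also shares 21878 bases with the lincRNA AC060780.1 on its own strand. None of these neighbours has a row, the labels do not say whether the libraries keep the strand, and how reads over the shared bases were assigned is unknown.

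**Figure D1:**
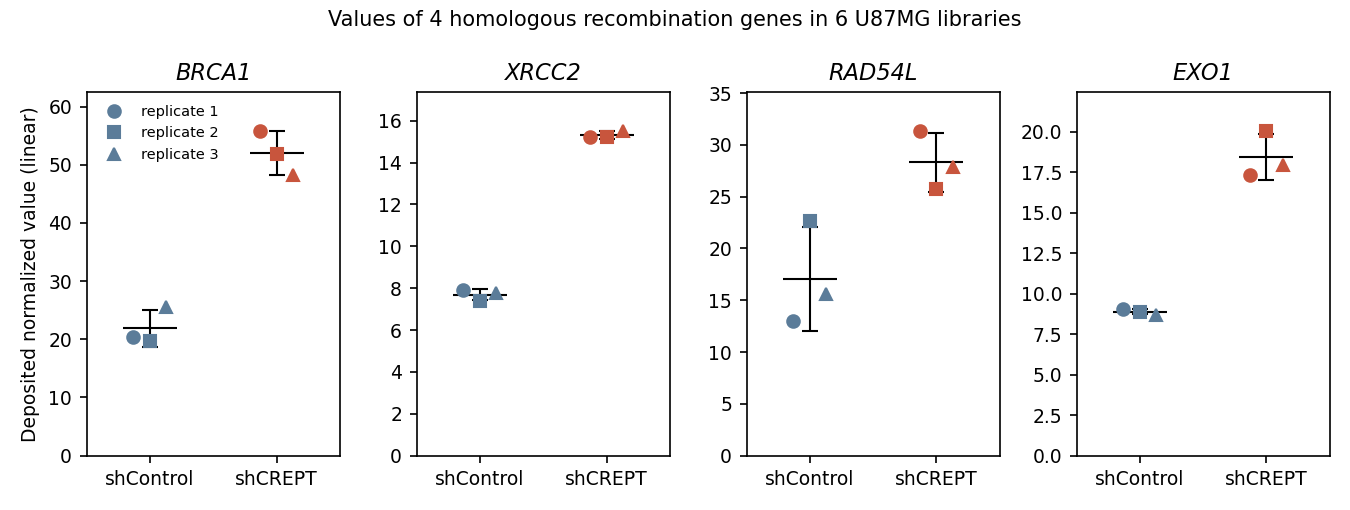
Deposited normalized values (linear axis from 0, one scale per gene) of the 4 genes in the 3 shControl and 3 shCREPT libraries; marker shapes give the replicate number, horizontal lines the mean and bars the SD. No knockdown library overlaps a control library in any panel, and the second shControl library of RAD54L, at 22.62, comes nearest to the knockdown group.

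An exact two-sided permutation test over the 6 libraries gave p = 0.1 for each of the 4 genes, the smallest p that 3 against 3 allows. Among the 481 genes called higher, BRCA1 ranked 185 by log2 difference, EXO1 327, XRCC2 364 and RAD54L 431. The median over those genes was 1.11, so BRCA1 lay above it and the other 3 below it. The median over all 1184 tested genes was −0.76, since 678 genes, 57.3%, were called lower. Median-of-ratios rescaling over the listed genes shifted shCREPT upward by 0.88 (log2, before 1 is added), moved that median to −0.13 and gave 492 higher against 377 lower. Under it the 4 differences were 2.06 for BRCA1, 1.78 for EXO1, 1.70 for XRCC2 and 1.56 for RAD54L, so their order stayed and their size depends on the scaling. This rescaling levels the median ratio of the listed genes, though all were selected as changed, 973 marked down and 657 up. Its sizes therefore serve as a check of order and not as a second estimate.

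**Figure D2:**
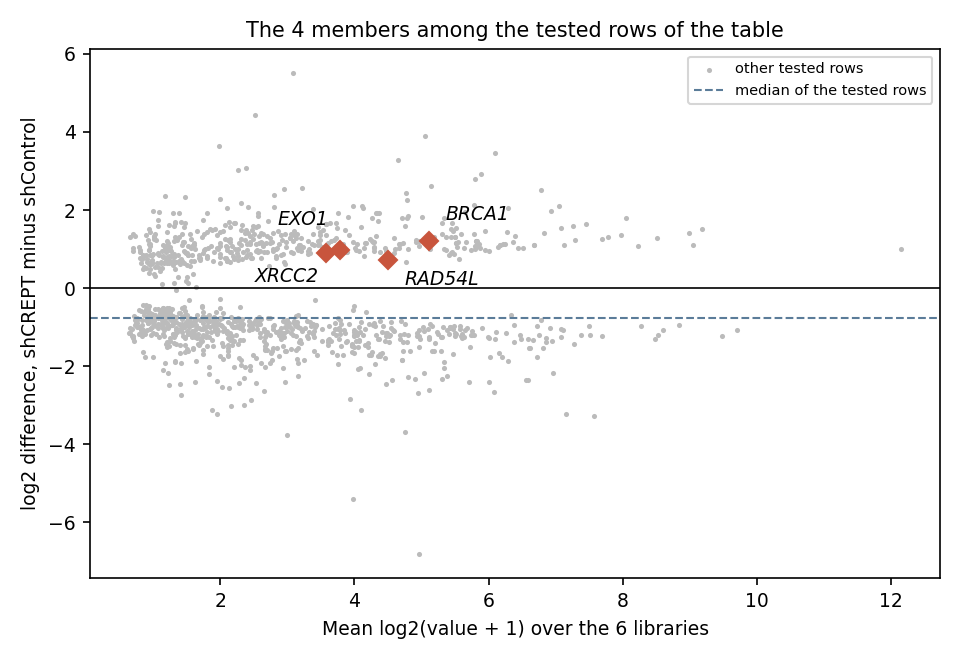
Each point is 1 of the 1184 tested genes, with its mean log2(value + 1) over the 6 libraries on the x axis and its log2 difference, shCREPT minus shControl, on the y axis; the dashed line is the median of −0.76. The 4 repair genes, marked as diamonds, lie at 0.73 to 1.22, inside the band of genes that are higher in shCREPT.

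The authors' deposited table marks 40.3% of its genes as up, these 4 among them, and gives folds of 2.28 for BRCA1, 2.14 for EXO1, 2.08 for XRCC2 and 2.01 for RAD54L. Its adjusted p-values for them run from 4.74e-68 for BRCA1 to 6.94e-24 for RAD54L. The authors' deposited table lists no absolute log2 fold under 1.001, and RAD54L, with 1.009, ranks 650 of the 657 genes marked up there. For BRCA1, XRCC2 and EXO1 the log2 ratio of the deposited means was within 0.06 of the log2 value that the authors' deposited table gives. For RAD54L it was 0.73 and lay 0.28 below it, a gap larger than in 89.7% of the 721 genes with a group mean above 5. No source used here says how the authors derived their fold from the reads, and the cause of the gap was not tested.

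The ratio of 1 repair gene to another within a library does not depend on how libraries are scaled. The ratio of BRCA1 to RAD54L was 1.58, 0.872 and 1.64 in the control libraries and 1.78, 2.02 and 1.73 in the knockdown libraries. These groups did not overlap, and the difference on the log2 scale was 0.49 (exact two-sided permutation p = 0.1, adjusted p = 0.6 over the 6 pairs), going to 0.19 without the second control library and to 0.42 to 0.65 without any other library. The ratio of XRCC2 to EXO1 was 0.875, 0.83 and 0.891 in control and 0.877, 0.76 and 0.865 in knockdown libraries, a log2 difference of −0.06 (exact two-sided permutation p = 0.6, adjusted p = 0.7). In XRCC2 over EXO1 and in the other 4 pairs the groups overlapped. None of the 6 pairs could pass the threshold with 3 libraries a group, so the test does not show that the 4 genes rose by the same factor. The 2 pairs of RAD54L with XRCC2 and EXO1 differed by 0.23 (XRCC2 over RAD54L) and −0.29 (RAD54L over EXO1) on the log2 scale, and by −0.022 and −0.064 without the second control library. Over all 6 leave-outs, XRCC2 over RAD54L ran from −0.022 to 0.43, and RAD54L over EXO1 from −0.48 (without the first control library) to −0.064.

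The wider pathway was read from a list of 50 genes of end resection, filament formation, strand exchange and resolution. Of these, 6 have a row, and all 6 were called higher, as were 40.6% of all tested genes of this selected table. Their median log2 difference was 1.02. The 2 that are not among the 4 genes are HROB, which brings the MCM8 and MCM9 helicase to recombination sites, and EME1, the partner of the MUS81 nuclease that cuts joined DNA molecules. HROB read 4.89, 4.08 and 3.85 in control and 11.64, 10.93 and 12.87 in knockdown libraries, a 2.76-fold difference. EME1 read 14.46, 12.13 and 11.38 in control and 26.16, 27.30 and 28.93 in knockdown libraries, a 2.17-fold difference. Both rose, by log2 differences of 1.28 ± 0.11 and 1.06 ± 0.11 (SE; limma adjusted p = 4.16e-05 and 9.25e-05). The other 44 genes, among them BARD1, PALB2 and RPA1, have no row. Since rows were selected by the authors' threshold, absence from the table shows neither that a gene was silent nor that it stayed level.

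Other repair lists were read in the same way. Of 15 meiotic recombination genes 2 have a row, PSMC3IP and MND1, which encode the HOP2 and MND1 subunits of a complex that stimulates strand exchange. PSMC3IP read 23.93, 27.29 and 26.49 in control and 71.07, 71.78 and 74.63 in knockdown libraries, 2.80-fold higher (log2 difference 1.45 ± 0.08, SE; limma adjusted p = 1.29e-05). MND1 read 7.64, 11.56 and 9.72 in control and 21.51, 24.30 and 22.64 in knockdown libraries, 2.37-fold higher (1.18 ± 0.15; limma adjusted p = 0.000248). In neither gene did the groups overlap, as in 96.8% of all tested genes. Of 19 checkpoint genes 2 have a row and rose, CLSPN, the adaptor that activates CHK1 (2.05-fold), and TIPIN, a fork protection factor (2.08-fold). Of 21 genes of the Fanconi pathway and crosslink repair, CENPX alone has a row and rose 2.16-fold. It encodes a histone-fold protein that also sits at centromeres. CLSPN, TIPIN and CENPX were called higher, as were 40.6% of all tested genes. None of 20 end joining genes, none of 18 mismatch repair genes and none of 23 base and nucleotide excision repair genes has a row, so EXO1 is listed without any of its mismatch repair partners.

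Genes outside these lists were looked for in the table's gene descriptions after the values were seen. SLX1B, the catalytic subunit of a nuclease that cuts recombination intermediates, fell from 39.52, 43.57 and 36.33 in control to 6.59, 9.46 and 19.42 in knockdown libraries (log2 difference −1.79 ± 0.34, SE; limma adjusted p = 0.00202). It kept its sign and its call under median-of-ratios rescaling, at −0.96 (limma adjusted p = 0.0423). SLX1A, which was on the list, is a near-identical copy of SLX1B with no row, and the split of reads between the copies is uncertain. DDIAS, an inhibitor of apoptosis after DNA damage, rose from 5.43 ± 1.14 to 11.6 ± 0.696 (SD, n = 3; log2 difference 0.98 ± 0.14, SE; limma adjusted p = 0.000434).

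**Figure D3:**
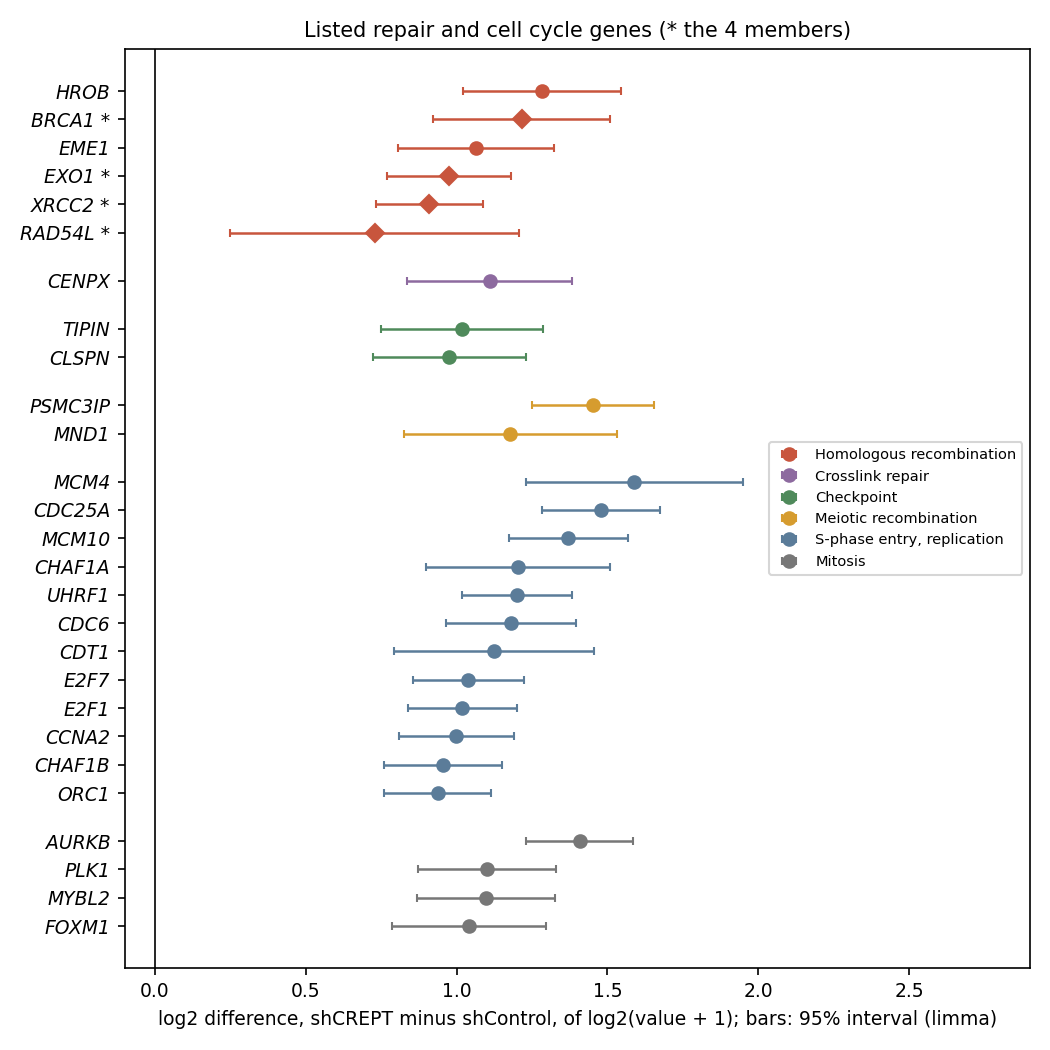
Log2 difference, shCREPT minus shControl, of log2(value + 1) for the 27 genes of the 9 lists that have a row, with 95% intervals from limma; colours give the list and diamonds with asterisks the 4 members. All 27 lie above 0, from 0.73 for RAD54L, which has the widest interval, to 1.59 for MCM4.

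Homologous recombination genes are expressed mostly in cycling cells, so replication and mitosis genes are given beside them. Of 37 genes for S-phase entry and replication 12 have a row, and of 21 mitosis genes 4 have a row. All of these were called higher, with median log2 differences of 1.15 and 1.10. They include E2F1 and MCM10 in the first list and FOXM1 and PLK1 in the second. All of them share the selection described above, and 40.6% of all tested genes were called higher. The mean log2 value of the 12 S-phase genes rose by 1.24, from 4.04 ± 0.07 to 5.28 ± 0.01 (SD, n = 3). Relative to that mean in the same library, BRCA1 stood at 0.40 ± 0.13 in control and 0.42 ± 0.09 in knockdown libraries on the log2 scale, a difference of 0.02 with overlapping groups. EXO1 went from −0.89 ± 0.09 to −1.08 ± 0.11, also with overlap. XRCC2 went from −1.10 ± 0.07 to −1.34 ± 0.03 and RAD54L from 0.01 ± 0.44 to −0.46 ± 0.14, and in these 2 genes the groups did not overlap, in RAD54L by a margin of values at −0.31 and −0.32. Of the repair genes only these 4 were put on this relative scale, so the share of all tested genes without overlap on it is not known. The RAD54L difference of −0.47 went to −0.22 without the second control library and to −0.63 without the first. The BRCA1 rise was thus of nearly the same size as the mean rise of the 12 S-phase genes with a row. The mean differences of the other 3 were smaller (EXO1 with overlapping groups). Since 25 genes of that list have no row and the 12 passed the authors' threshold, their mean is not the rise of the whole list. Whether the share of cells in S phase differed between the groups was not tested.

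**Figure D4:**
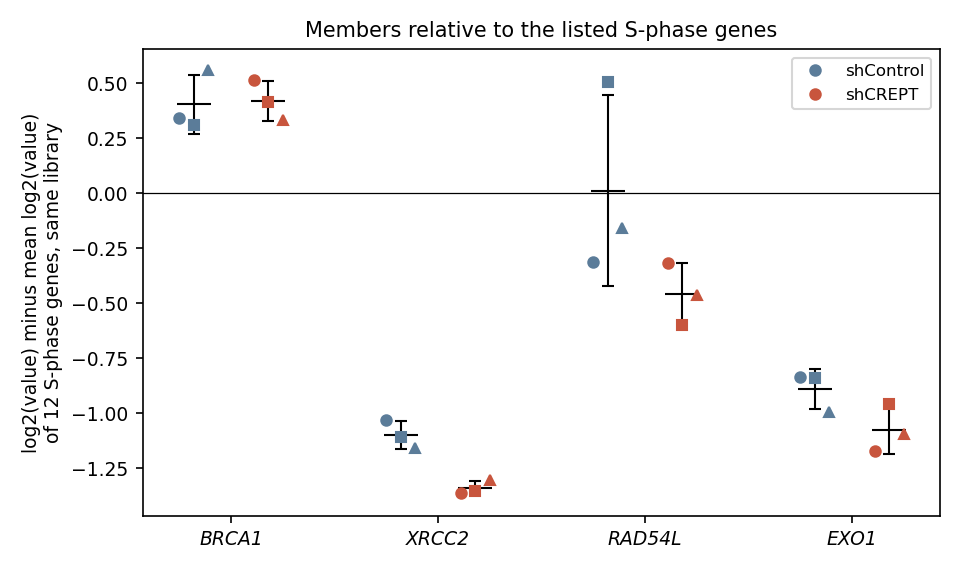
Each gene's log2 value minus the mean log2 value of the 12 listed S-phase genes in the same library, for shControl and shCREPT; marker shapes give the replicate number (circle 1, square 2, triangle 3), lines the mean and bars the SD. The BRCA1 groups lie at the same height, and XRCC2 is lower in all 3 knockdown libraries.

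Likeness to each gene was measured by Pearson's r of log2(value + 1) over the 6 libraries, which share 1 contrast between groups, so that r is high for most genes that differ in the same direction. BRCA1 was most like DBF4B, an activator of the CDC7 replication kinase (r = 0.999), CLSPN (0.998) and SP8, a transcription factor (0.998). EXO1 was most like UCN2, a urocortin peptide (0.998), SKA1 of the kinetochore (0.998) and CDC25A, a phosphatase of S-phase entry (0.997). XRCC2 was most like EEF1A2, MCM10 and IL11, each with r above 0.999. For these 3 members, 251 to 284 of 1041 other tested genes with a symbol had r above 0.95. RAD54L was most like VEPH1 (0.997), ACP3 (0.986) and LSP1P5 (0.971), and only 8 genes had r above 0.95 with it. Between members, r was 0.964 to 0.99 among BRCA1, XRCC2 and EXO1 and 0.801 to 0.807 for RAD54L with each of the others. By size of the log2 difference, the nearest genes were LRP8, C16orf74 and FAM72D for BRCA1, FSTL3, PPL and URGCP-MRPS24 for XRCC2, PEAR1, B4GALNT3 and RANGAP1 for EXO1, and PPP1R26-AS1, BAIAP2L1 and FRMD4B for RAD54L.

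The fall of the target itself is not shown by these data, because RPRD1B is absent from the 1630 listed genes. Each listed gene was marked significant by the authors, with an absolute log2 fold of 1.001 or more. RPRD1B is thus not among the genes listed as lowered by that much. Whether it fell by less, or was left out for another reason, cannot be told from the listed values. The name shCREPT therefore rests on the labels alone. Of 8 astrocyte and glioma markers 3 have a row, GFAP, S100B and SLC1A3, and all 3 fell: their summed value was 498 to 528 in control and 72.5 to 88.9 in knockdown libraries, with S100B listed at 0 in 1 knockdown library. No row was found for any of 9 microglia and macrophage markers or of 7 T cell markers. The endothelial markers CDH5 and KDR, 2 of 5 listed, summed to 43.3 to 45.3 in control and 11.6 to 13.7 in knockdown libraries. The values of the oligodendrocyte lineage (2 of 5), fibroblast (1 of 6) and neuronal (1 of 4) markers with a row were also lower in the knockdown libraries, and 1 of these 4 was too low to be tested. A marker could have a row only if the authors had marked it significant, and 57.3% of all tested genes were called lower. The part of any of these marker changes in the 4 repair genes was not tested.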

How the data were processed

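Total RNA was sequenced from 6 libraries of U87MG cells, 3 per group. An RNeasy kit and an NEBNext Ultra kit were used, per the labels' protocols. HISAT2, HTSeq and the build GRCh38 are named, without version or role, per the submitters' processing notes. The deposited table holds per-library normalized signal values, whose unit and normalization are not given in the sources used here, and, per the file headers, the authors' fold ratio with its log2 value and the raw and adjusted p-value. All 1630 rows carry the authors' mark of significance.

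Values were transformed as log2(value + 1), the 1184 genes reaching 1 in 3 or more libraries were kept, and limma 3.58.1 (R 4.3.3) compared the groups, calling a gene at an adjusted p (Benjamini-Hochberg) under 0.05. On simulated data for 1184 genes, 89% of genes changed by 1 and 51% of those changed by 0.5 (log2) were called, and 0.915% of unchanged ones. The simulation left 984 genes unchanged, raised all means and shuffled the spreads between genes, whereas 97.9% of the real tested genes were called. These rates therefore check the code and do not describe the real fit. Folds are ratios of mean deposited values. Ratios, permutation tests and motif searches used Python 3.11.15, numpy 2.4.6, pandas 2.3.3 and scipy 1.17.1, and figures matplotlib 3.10.9. Promoters came from RefSeq (GRCh38.p14), where all 4 genes matched; of several starts, the one nearest the first principal GENCODE 29 transcript was used. Every pair of libraries differed in 96.0% or more of the genes, and all 6 were counted. P-values measure the spread between libraries, which may be technical.

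The 4 genes, the lists and the tests were chosen with earlier results of these data known. Named genes are the 4 genes, every list gene with a row, and for each of the 4 the 3 genes with the highest r and the 3 with the nearest difference; SLX1B and DDIAS were added after their values were seen. Alternatives were another pseudocount (0.1 or 5), no filter or a minimum of 10, median-of-ratios rescaling, quantile normalization, limma's trend and robust options, the replicate block, each library left out and the exact test.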

Additional observations from a re-analysis of the deposited data

How the results depend on the processing

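BRCA1, XRCC2, RAD54L and EXO1 kept their direction and their call in each of the 14 alternative fits. The log2 differences ran from 1.09 to 2.06 for BRCA1, 0.68 to 1.70 for XRCC2, 0.56 to 1.56 for RAD54L and 0.75 to 1.78 for EXO1, and the highest limma adjusted p-values were 0.00109, 0.000715, 0.0357 and 0.00074. The upper end of each range came from median-of-ratios rescaling, which has the limit given above. With 1 library left out the differences were 1.15 to 1.33, 0.88 to 0.93, 0.56 to 0.94 and 0.91 to 1.01. The exact permutation test (p = 0.1 for the log2 differences of 1.22, 0.91, 0.73 and 0.97) cannot reach the threshold with 3 libraries a group and says nothing about stability. All 27 list genes with a row stayed called as higher in every fit that tested them, and the homologous recombination list gave 6 calls throughout. Their rows were selected as significant in these same 6 libraries, and 97.9% of all tested genes were called in the main fit. Keeping a call is therefore no mark of these genes. Of the 1159 calls over the table (481 higher, 678 lower), a minimum of 10 left 485 (214 and 271) because only 487 genes were tested, and median-of-ratios rescaling left 377 lower; leaving out 1 library gave 1137 to 1152. Left-out libraries moved the log2 difference of XRCC2 over RAD54L between −0.022 (without shControl replicate 2) and 0.43, and that of XRCC2 over EXO1 between −0.094 and 0.010 (without shCREPT replicate 2); these leave-outs, those of the ratios to S-phase genes and the longer promoter window, which raised the genes with GGCGGGAA from 1 to 2, were chosen after seeing the data. The fit with the replicate number as a block called 1156 genes and gave adjusted p-values of 0.00109 for BRCA1, 0.000715 for XRCC2, 0.0255 for RAD54L and 0.00074 for EXO1; same-numbered libraries deviated with r of −0.11, 0.02 and −0.18, so no pairing was seen. Read depth is not known, so it gives no limit on these values, and no count test was run.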
